A study of Mus musculus with 24 samples.

Results

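The genes described here are 10 genes of the integrated stress response that are known for their link to the transcription factor ATF4: Atf4 itself, Atf5, Ddit3, Trib3, Nupr1, Sesn2, Ddit4, Asns, Psat1 and Chac1. They were chosen by name, and every array probe annotated with one of these names was taken. This gave 17 of the 56605 probes on the array, and 16 of the 17 passed the filter on dim probes. All 10 genes were therefore among the 21331 genes tested, of 37074 gene names on the array. Liver RNA came from 24 male C57Bl/6J mice, 1 array per mouse, in 4 groups of 6. Per the series title, LWT livers had the nuclear receptor PPARα in their hepatocytes and LKO livers lacked it there. How the receptor was removed, and in which litters, is not given in the sources used here, and neither is the age of the mice. Within each genotype, 6 mice received the compound CL316243, which activates beta3 adrenergic receptors and acts mainly on adipose tissue, and 6 received the carrier only (0.5% carboxymethyl cellulose). The dose was 3 mg/kg by mouth at Zeitgeber time 10 h, and the liver was removed 6 h later, at 16 h. All mice, controls included, ate a standard diet freely. Since the arrays measured whole liver, fewer cells of a type and less RNA per cell cannot be told apart.

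The integrated stress response begins with kinases that sense amino acid shortage, unfolded protein in the endoplasmic reticulum, viral RNA or haem shortage and that phosphorylate the translation factor eIF2α. General translation then falls, while upstream reading frames in the Atf4 mRNA allow more ATF4 protein to be made. ATF4 is a bZIP factor that binds DNA as a dimer with C/EBP proteins and other partners, and it raises genes for amino acid synthesis and transport, for redox defence, and for feedback on the pathway itself. In liver the pathway responds to dietary protein, to secretory load and to mitochondrial stress. An mRNA array sees the transcripts of these genes, not the translation of Atf4.

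The element that ATF4 binds with C/EBP partners has the core TGATGNAA. It was searched on both strands of the RefSeq promoter windows (build GRCm38.p6), which run from 250 bases before to 50 bases after each annotated start. All 10 genes matched a window (12 windows in all), and 4 of the 10 held the core, against 4.51% of the 27025 genes with a window. The 4 matches are shown because these genes differ in how far they moved, as described further on. The strand printed is that of the gene, from 5′ to 3′, and capitals mark the core or its reverse complement. In Asns the match lay at bases -23 to -16 from the start (window printed: chr6:7693210-7693269, minus strand). In Chac1 it lay at -193 to -186 (chr2:119351023-119351082, plus strand) and in Nupr1 at -110 to -103 (chr7:126625547-126625606, minus strand), both in reverse orientation. In Trib3 it lay after the start, at bases 15 to 22, also reversed (chr2:152344028-152344057, minus strand).
Asns: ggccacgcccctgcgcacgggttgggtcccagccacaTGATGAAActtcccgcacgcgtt
Chac1: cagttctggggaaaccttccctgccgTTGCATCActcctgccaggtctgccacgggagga
Nupr1: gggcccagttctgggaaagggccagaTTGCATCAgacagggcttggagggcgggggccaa
Trib3: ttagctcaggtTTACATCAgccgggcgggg
A stricter 7-letter search, TGATGCA, which overlaps the first where the free base is C, was met in Chac1 and Nupr1 only of the 10, against 3.63% of genes. A match is a string of letters and not a measured binding site, and no match says only that the letters are not in this window.

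Levels are given as log2 of the processed intensity relative to the 75th percentile of the same array, so a level of 0 is that percentile and a difference of 1 is a doubling. Levels of different genes come from different probes and are not compared with each other. The 75th percentile itself was 397.4 to 577.7 intensity units, and 26985 to 34202 probes per array were well above background. Ppara was lower in LKO than in LWT livers, with a difference, LKO minus LWT, of -0.68 under vehicle and -1.91 under CL316243 in its brightest probe (log2, exact permutation test, 6 against 6 mice, p = 0.00216 each, the smallest this design allows). Whether this probe lies in the deleted part of the gene is not given in the sources used here. The 7 hepatocyte markers (Alb, Ttr, Apoa1, Apob, Tat, Cps1, Hnf4a) were well above background on all 24 arrays. One mouse stood apart for the genes described here: LKO CL316243 replicate 3 had the highest level of its group in 8 of the 10 genes. Its array had the fewest probes well above background of its group (27921) and the lowest mean correlation with its group mates (0.97, against 0.98 to 0.99 for the others). Values without it are given beside the results on the 10 genes that it touches most. The arrays lay on 3 slides, each with 2 mice of every group.

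**Figure D1:**
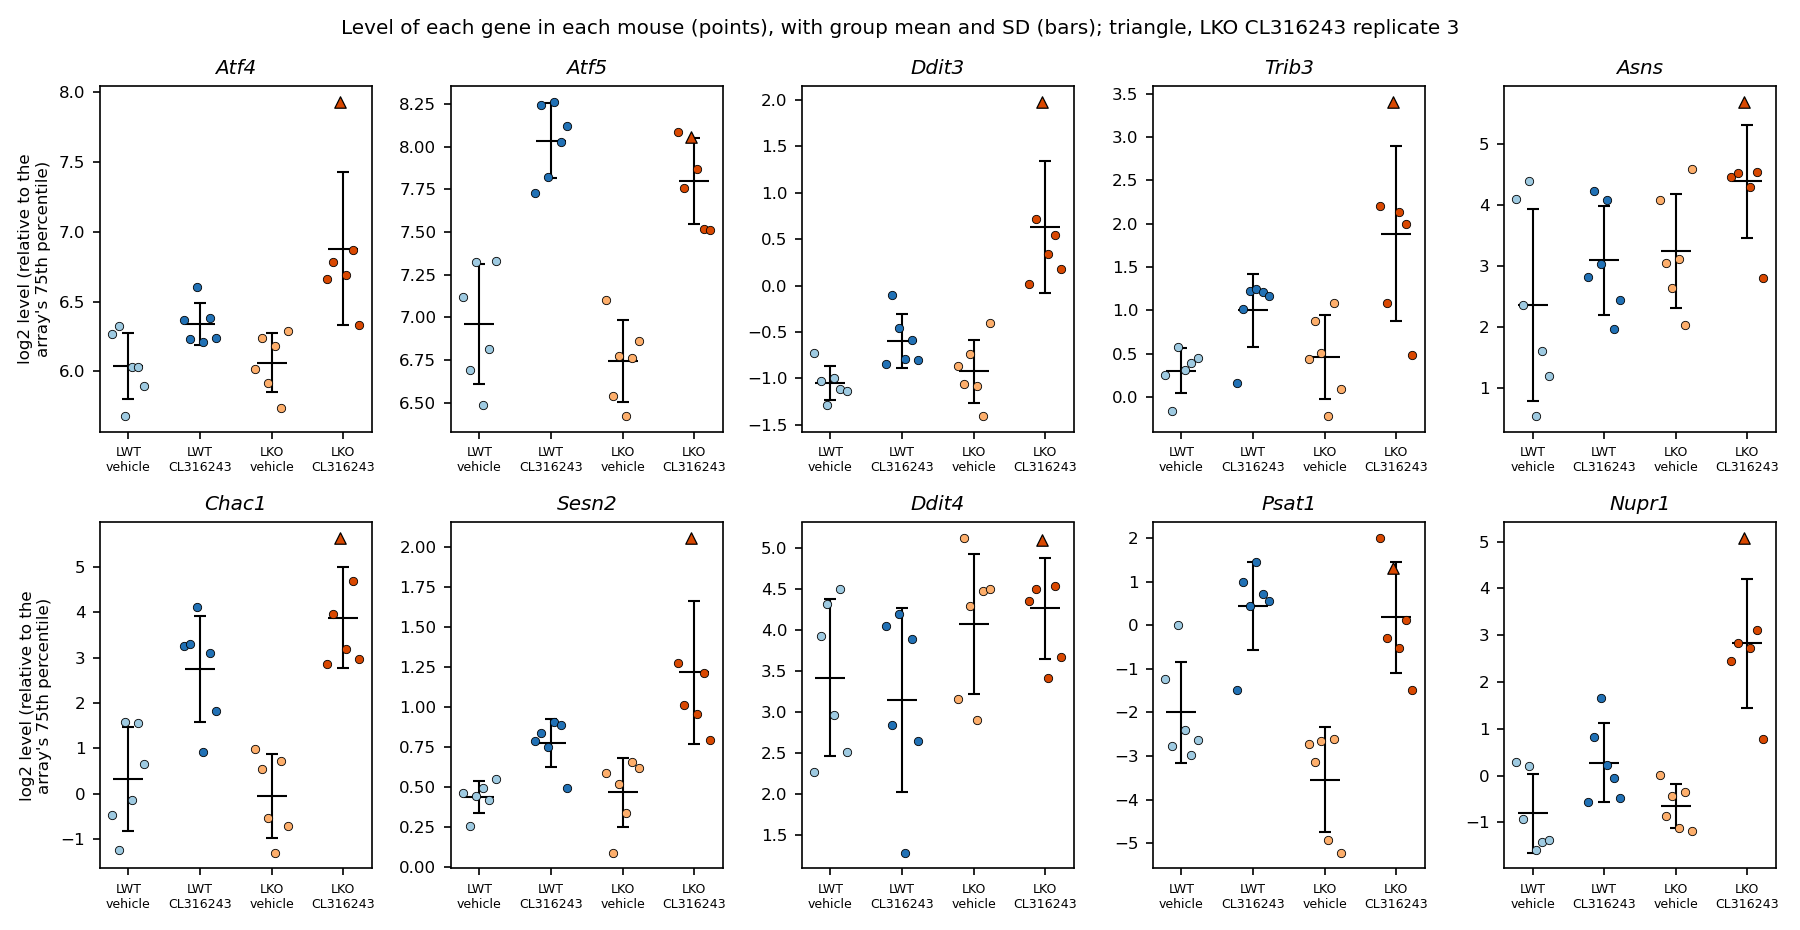
Level of each of the 10 genes in each of 24 mice (vertical axis, log2 intensity relative to the array's 75th percentile; horizontal axis, the 4 groups of 6), with bars for the group mean and SD. The triangle marks LKO CL316243 replicate 3, the highest of its group in 8 of the 10 panels; with CL316243, Atf5, Chac1 and Psat1 lie higher in both genotypes and Ddit3 and Nupr1 lie highest in LKO.

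In LKO livers CL316243 raised 8 of the 10 genes, Atf4, Atf5, Ddit3, Trib3, Nupr1, Sesn2, Psat1 and Chac1, at an adjusted p under 0.05 (limma, Benjamini-Hochberg over 21331 genes). Over all genes tested in that comparison, 40.3% were called and 20.9% were called higher. The increases ran from 1.68-fold for Sesn2 to 15.4-fold for Chac1, and the median log2 change of the 10 was 1.28, against 0.03 over all genes. All 6 treated LKO mice lay above all 6 LKO vehicle mice in 7 of the 10 genes, an order that 10.5% of all genes showed. In LWT livers 3 of the 10 were called, Atf5, Chac1 and Psat1, all higher, where 38.3% of all genes were called and 18.9% were called higher. All 6 treated LWT mice lay above all 6 LWT vehicle mice in 1 gene, an order that 10% of all genes showed. The LWT change was positive in 9 of the 10, with a median of 0.72 against 0.01 over all genes. Asns and Ddit4 were called in neither genotype.

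**Figure D2:**
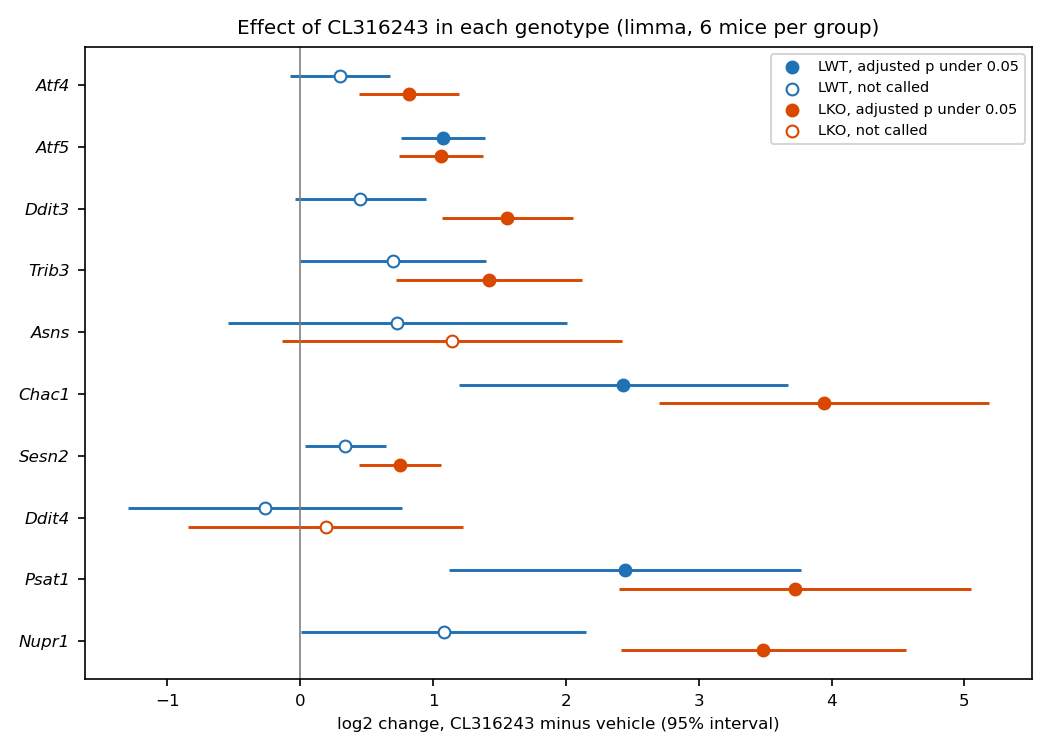
Log2 change with CL316243 (horizontal axis, treated minus vehicle, points, with 95% intervals as lines) for each of the 10 genes in LWT (blue) and LKO (orange), 6 mice per group; filled points passed an adjusted p under 0.05. Of the LKO points 8 are filled and of the LWT points 3, Atf5, Chac1 and Psat1; the widest intervals belong to Psat1, Asns and Chac1.

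Atf4, the bZIP factor at the centre of the pathway, was measured best by a probe at chr15:80087902-80087961 (build mm9, as are all probe positions here). In LWT its level was 5.68 to 6.33 with a median of 6.03 under vehicle, and 6.21 to 6.61 with a median of 6.30 under CL316243. In LKO it was 5.74 to 6.29, median 6.10, under vehicle and 6.33 to 7.93, median 6.74, under CL316243. The treated LKO mice all lay above the LKO vehicle mice, by a narrow margin for the lowest, while the LWT groups overlapped. The change was 0.82 ± 0.18 (log2, SE) in LKO, or 1.76-fold, with an adjusted p of 0.00109. In LWT it was 0.30 ± 0.18 with an adjusted p of 0.205, and the 95% interval ran from -0.08 to 0.68. Without LKO CL316243 replicate 3 the LKO change was 0.61 (adjusted p = 0.000525), and the LWT change, although its own mice were the same, had a standard error of 0.12 and an adjusted p of 0.042. The fit takes 1 spread per gene from all 4 groups, so that this LKO mouse enters the error of the LWT comparison. With every kept probe fitted (37.6% of them called in LWT and 41% in LKO), a second Atf4 probe, nearer the transcript's 5′ end, gave 0.76 in LKO (adjusted p = 0.000375) and 0.46 in LWT (adjusted p = 0.0192, called), so the LWT call differed between the probes.

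Atf5, a relative of ATF4 whose mRNA also has upstream reading frames and which acts in the mitochondrial unfolded protein response, changed by a similar amount in both genotypes. Its brightest probe lies at chr7:52067627-52067686. LWT mice had 6.49 to 7.33 (median 6.97) under vehicle and 7.73 to 8.26 (median 8.08) under CL316243. LKO mice had 6.42 to 7.10 (median 6.77) and 7.51 to 8.09 (median 7.82). Treated and vehicle mice did not overlap in either genotype. The rise was 2.105-fold in LWT (log2 1.07 ± 0.15, adjusted p = 9.63e-06) and 2.08-fold in LKO (1.06 ± 0.15, adjusted p = 1.4e-05). The difference between these effects was -0.02 with a 95% interval from -0.46 to 0.43. A second probe gave 1.22 and 1.14, also called in both. Atf5 was the only one of the 10 without overlap between treated and vehicle mice in LWT.

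Ddit3 encodes CHOP, a C/EBP relative that ATF4 induces and that takes part in stress-linked cell death. Its brightest probe lies at chr10:126731579-126731638 and is annotated to another transcript than the second Ddit3 probe. Unless the second probe is named, the Ddit3 values here are those of the brightest. Under vehicle the LWT mice had -1.28 to -0.73 (median -1.07) and the LKO mice -1.41 to -0.40 (median -0.96). Under CL316243 the LWT mice had -0.85 to -0.10 (median -0.69) and the LKO mice 0.02 to 1.98 (median 0.44). Each of the 6 treated LKO mice lay above each of the other 18 mice. The rise in LKO was 2.94-fold (log2 1.56 ± 0.24, adjusted p = 2.68e-05), and within the 3 slides it was 1.92, 1.06 and 1.69. In LWT the change was 0.45 ± 0.24, adjusted p = 0.143. A second Ddit3 probe gave 1.68 in LKO (adjusted p = 7.49e-05) and 0.51 in LWT (adjusted p = 0.166). Without LKO CL316243 replicate 3, the highest Ddit3 level of all, the LKO change was 1.29 (adjusted p = 5e-06) and the LWT change of 0.45 had an adjusted p of 0.0245.

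Trib3, a pseudokinase that ATF4 and CHOP induce and that feeds back on ATF4 and on AKT, was measured by 1 probe at chr2:152163161-152163220. In LWT its level was -0.16 to 0.58, median 0.35, under vehicle and 0.16 to 1.25, median 1.19, under CL316243. In LKO it was -0.22 to 1.08, median 0.47, and then 0.48 to 3.41, median 2.07. The groups overlapped in both genotypes, in LWT only through treated replicate 1 at 0.16, the lowest of its group. The rise in LKO was 2.68-fold (log2 1.42 ± 0.34, adjusted p = 0.00191), and 1.12 without LKO replicate 3 (adjusted p = 0.00428). In LWT the change was 0.70 ± 0.34 with an adjusted p of 0.109.

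Nupr1, a small chromatin-associated stress protein, had a called rise in LKO of 11.2-fold. Its brightest probe lies at chr7:133766978-133767037. Vehicle mice lay from -1.59 to 0.29 in LWT (median -1.16) and from -1.18 to 0.02 in LKO (median -0.65). Treated LWT mice lay from -0.56 to 1.67 (median 0.08), and treated LKO mice from 0.78 to 5.07 (median 2.77). The treated LKO mice spread over 4.29 log2 units, with replicate 6 lowest and replicate 3 highest, and still all lay above the LKO vehicle mice. The LKO change was 3.48 ± 0.52 (adjusted p = 1.97e-05), or 3.04 without replicate 3 (adjusted p = 2.66e-05). In LWT it was 1.08 ± 0.52 with an adjusted p of 0.106. A second probe under this name, annotated to another transcript upstream of the first and well above background on 17 of 24 arrays, did not follow it (LKO change -0.09, adjusted p = 0.767). The 2 Nupr1 probes thus disagreed, and the Nupr1 values here are those of the brighter one.

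Sesn2 and Ddit4 both encode stress-induced inhibitors of mTORC1 signalling, the growth pathway driven by amino acids and insulin. Sesn2 (probe chr4:132048858-132048917) had narrow groups: 0.26 to 0.55 (median 0.45) in LWT vehicle, 0.49 to 0.90 (median 0.81) in LWT CL316243, 0.09 to 0.65 (median 0.55) in LKO vehicle and 0.79 to 2.05 (median 1.11) in LKO CL316243. The treated LKO mice lay above all LKO vehicle mice, and in LWT 5 of the 6 treated mice lay above all vehicle mice. The change was 0.75 ± 0.15 in LKO (1.68-fold, adjusted p = 0.000376) and 0.34 ± 0.15 in LWT (adjusted p = 0.0761). Without LKO replicate 3 it was 0.58 (adjusted p = 0.000166) and 0.34 (adjusted p = 0.00819). Ddit4 (probe chr10:59412486-59412545), also known as REDD1 and responsive to glucocorticoids and hypoxia, ranged from 1.29 to 5.12 over the 24 mice, and the groups overlapped in every comparison. Its change was 0.19 ± 0.50 in LKO (adjusted p = 0.786) and -0.27 ± 0.50 in LWT (adjusted p = 0.719), with 95% intervals from -0.84 to 1.22 and from -1.30 to 0.77. A log2 change of 1 lies inside the LKO interval and one of -1 inside the LWT interval, so these sizes were not excluded.

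Psat1 and Asns encode enzymes of amino acid synthesis, Psat1 the transaminase step of serine synthesis and Asns the asparagine synthetase. Psat1 (brightest probe chr19:15979622-15979681) lay at -2.97 to 0.00 (median -2.51) in LWT vehicle mice and at -1.48 to 1.45 (median 0.64) with CL316243. LKO vehicle mice had -5.22 to -2.60 (median -2.93), with 5 of the 6 arrays well above background, and treated LKO mice had -1.50 to 1.99 (median -0.09). Treated and vehicle mice were separate in LKO and overlapped in LWT. The rise was 13.2-fold in LKO (log2 3.73 ± 0.64, adjusted p = 8.93e-05) and 5.45-fold in LWT (2.45 ± 0.64, adjusted p = 0.00417). Within the 3 slides it was 3.18 to 4.44 in LKO and 2.30 to 2.72 in LWT. A second, dimmer Psat1 probe, well above background on 13 of 24 arrays, gave 1.06 in LKO (adjusted p = 0.0522) and 0.96 in LWT (adjusted p = 0.0824). Another was well above background on 0 of 24 arrays and was not tested.

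Asns (brightest probe chr6:7625171-7625228) varied more between mice of a group than between groups. LWT vehicle mice ranged from 0.53 to 4.40 (median 1.98) and treated LWT mice from 1.97 to 4.23 (median 2.92). LKO vehicle mice ranged from 2.04 to 4.60 (median 3.08) and treated LKO mice from 2.80 to 5.70 (median 4.50). Although the medians were higher with CL316243, the groups overlapped in both genotypes. The change was 1.14 ± 0.62 in LKO (adjusted p = 0.147, 95% interval -0.14 to 2.42) and 0.73 ± 0.62 in LWT (adjusted p = 0.38, interval -0.55 to 2.01). A second probe gave 1.15 and 0.87, with neither called.

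Chac1 encodes a glutathione-degrading enzyme that ATF4 and CHOP induce. Measured at chr2:119179990-119180049, it had the highest fold change of the 10 in LKO. LWT mice had -1.25 to 1.58 (median 0.25) under vehicle and 0.91 to 4.13 (median 3.18) under CL316243. LKO mice had -1.30 to 0.98 (median -0.0012) and 2.86 to 5.64 (median 3.58). Treated and vehicle mice were far apart in LKO, while in LWT 5 of the 6 treated mice lay above all vehicle mice. The rise was 15.4-fold in LKO (log2 3.94 ± 0.60, adjusted p = 2.5e-05) and 5.40-fold in LWT (2.43 ± 0.60, adjusted p = 0.00261). Within the slides the LWT change was 0.25, 4.58 and 2.47, and the LKO change, in the same order, 5.43, 2.16 and 4.24. The size of the Chac1 change therefore differed widely between slides, each of which holds 2 mice per group.

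Of the 10 genes 3 were called in LWT and 8 in LKO, but a gene called in one genotype and not in the other is not thereby shown to differ. Tested directly, as the LKO effect minus the LWT effect, 0 of the 10 passed an adjusted p under 0.05 in limma, where 5.41% of all genes did, and 2 of the 10 had an unadjusted p under 0.05. These were Ddit3, with a difference of 1.11 ± 0.34 (95% interval 0.41 to 1.80, adjusted p = 0.0571), and Nupr1, with 2.40 ± 0.73 (0.89 to 3.92, adjusted p = 0.0573). Both lay close to the threshold in their brightest probes. Leaving out 1 mouse changed the call of Ddit3 for 5 of the 24 mice and that of Nupr1 for 2, and some settings moved 1 or both across it. With every kept probe fitted, the second Ddit3 probe gave a difference of 1.17 (adjusted p = 0.0919). The second Nupr1 probe gave -0.12 (adjusted p = 0.882). For Chac1 the difference was 1.51 ± 0.85 (adjusted p = 0.368), for Psat1 1.28 ± 0.90 (0.501), for Trib3 0.72 ± 0.48 (0.466), for Atf4 0.52 ± 0.26 (0.294) and for Sesn2 0.41 ± 0.21 (0.312). Asns and Ddit4 had differences of 0.41 ± 0.87 and 0.46 ± 0.70. Without LKO CL316243 replicate 3, Ddit3 passed (0.84, adjusted p = 0.0272) and Nupr1 did not (1.96, adjusted p = 0.0611), where 7.2% of all genes were called. In the same fit 8 of the 10 were called in LWT (Atf4, Atf5, Ddit3, Trib3, Nupr1, Sesn2, Psat1 and Chac1), where 41.7% of all genes were, and the same 8 in LKO, where 36.7% of all genes were. With only the LWT mice in the fit, 6 were called in LWT (38.4% of all genes): Atf5, Ddit3, Trib3, Sesn2, Psat1 and Chac1. The count in LWT thus depended on which mice entered the spread. The LKO changes not yet given without that mouse were 3.59 for Chac1, 3.50 for Psat1 and 1.01 for Atf5, all called, and 0.88 for Asns and 0.02 for Ddit4, not called.

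Under vehicle 0 of the 10 genes differed between genotypes in limma (1.18% of all genes were called), and 1 had an unadjusted p under 0.05. This was Psat1, lower in LKO by 1.54 ± 0.64 (log2, as LKO minus LWT -1.54, 95% interval -2.87 to -0.22, adjusted p = 0.477). For Atf4 the interval of the difference was -0.35 to 0.40, for Sesn2 -0.28 to 0.34 and for Atf5 -0.53 to 0.10. Those of Asns (-0.39 to 2.17), Chac1 (-1.62 to 0.86) and Ddit4 (-0.38 to 1.69) were too wide to exclude a difference of 1.5-fold. The same held for Nupr1 (-0.92 to 1.22), Trib3 (-0.54 to 0.86), Ddit3 (-0.37 to 0.615) and Psat1.

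Under CL316243, 4 of the 10 were called higher in LKO than in LWT: Atf4, Ddit3, Sesn2 and Nupr1, where 15.9% of all genes were called and 7.74% called higher. This comparison uses the same treated mice as those above and is not separate evidence. Nupr1 was 5.88-fold higher (log2 2.56 ± 0.52, adjusted p = 0.00117) and Ddit3 2.34-fold higher (1.23 ± 0.24, adjusted p = 0.00075). Ddit3 was the 1 gene of the 10 in which all 6 treated LKO mice lay above all 6 treated LWT mice, which 2.53% of all genes showed. Without LKO replicate 3, Nupr1 (2.11, adjusted p = 0.00194) and Ddit3 (0.96, adjusted p = 0.000214) were still called. Atf4 (0.54 ± 0.18, adjusted p = 0.0455) and Sesn2 (0.44 ± 0.15, adjusted p = 0.0466) were not, at 0.33 (adjusted p = 0.064) and 0.27 (adjusted p = 0.0725), where 18.6% of all genes were called. Both had passed by a small margin, and the second Atf4 probe did not pass (0.41, adjusted p = 0.0726, with 15.4% of probes called). With only the treated mice fitted, or with a minimum of 1.5-fold, Atf4 and Sesn2 were not called either, and 2 of the 10 were (10.3% and 7.63% of all genes). Within the 3 slides the Nupr1 difference was 4.07, 0.37 and 3.23 and the Ddit3 difference 2.15, 0.38 and 1.16, each lowest on the slide that holds LKO replicates 1 and 6. Trib3 (0.88 ± 0.34, adjusted p = 0.0818), Ddit4 (1.11 ± 0.50, 0.144), Asns (1.30 ± 0.62, 0.17) and Chac1 (1.13 ± 0.60, 0.224) had positive differences that did not pass. For Psat1 (-0.26 ± 0.64) and Atf5 (-0.23 ± 0.15) the difference was negative and did not pass.

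**Figure D3:**
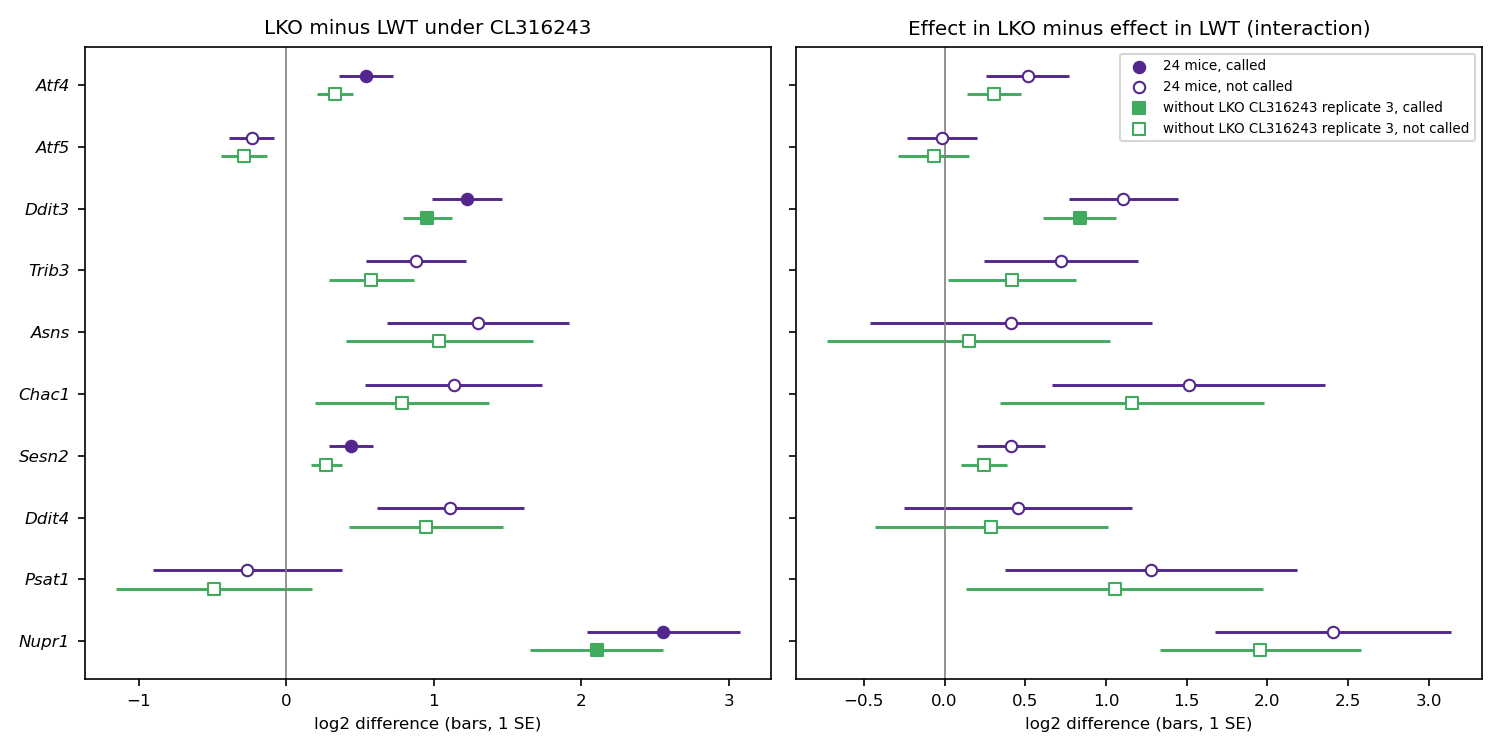
Left, LKO minus LWT under CL316243; right, effect in LKO minus effect in LWT (horizontal axes, log2 difference, lines of 1 SE), for each of the 10 genes with all 24 mice (circles) and without LKO CL316243 replicate 3 (squares); filled symbols passed an adjusted p under 0.05. On the left Ddit3 and Nupr1 are filled both ways and Atf4 and Sesn2 with 24 mice only; on the right the only filled symbol is Ddit3 without that mouse.

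Among the marker lists described here, those of neutrophils and endothelial cells were higher with CL316243 in LKO beside these genes. The mean log2 level of the 5 neutrophil markers (S100a8, S100a9, Ly6g, Cxcr2, Mpo, all tested) was -2.63 to -2.11 in LKO vehicle and -2.04 to 0.19 in LKO CL316243 mice, a difference of 1.28 (exact permutation test, p = 0.00216, adjusted p = 0.0302 over 28 tests). In LWT it was -2.58 to -1.57 and then -2.57 to -0.73, a difference of 0.74 (adjusted p = 0.164). Cxcr2 and Mpo were well above background on 14 and 16 of 24 arrays, so part of this mean lies near background. For the 5 endothelial markers (Pecam1, Stab2, Kdr, Lyve1, Cdh5) the difference was 0.38 in LKO, from 0.15 to 0.60 up to 0.70 to 0.92 (exact permutation test, adjusted p = 0.0302), and 0.30 in LWT (adjusted p = 0.0969). The differences of the hepatocyte, macrophage, stellate and cholangiocyte lists did not pass. The part of these cell types in the changes of the 10 genes was not tested.

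Whether mice of one group varied together was examined for Atf4 with each of the other 9 genes, after subtracting each group's mean, over 24 mice. Ddit3 was the only one to pass (Pearson r = 0.81, permutation p = 0.00169, adjusted p = 0.0152 over 9 pairs; Spearman rho = 0.62, permutation p = 0.00294, adjusted p = 0.0265). Without the 2 mice farthest from the median in Atf4, both of the LKO CL316243 group, r was 0.53, and without LKO CL316243 replicate 3 alone it was 0.50. It was 0.61 over the vehicle mice and 0.87 over the treated ones, and 0.96, 0.55 and 0.75 within the slides. For Nupr1 (r = 0.57, adjusted p = 0.205) and Sesn2 (r = 0.57, adjusted p = 0.211), r fell to 0.01 and -0.23 without those 2 mice, so that it rested on them. For Atf5 r was -0.04 and for Psat1 0.01, but both were -0.51 without those 2 mice. Over the vehicle mice they were -0.44 and -0.605, and over the treated mice 0.24 and 0.36. Trib3, Chac1 and Sesn2 also had negative r over the vehicle mice (-0.65, -0.66 and -0.49) and positive r over the treated ones (0.75, 0.73 and 0.88). So did Nupr1 (-0.28 and 0.86) and Ddit4 (-0.14 and 0.54), while for Asns both were positive (0.19 and 0.54). The treated mice include LKO CL316243 replicate 3, and r over them is not given without it. Over all mice but that one, r was -0.09 for Trib3, -0.11 for Chac1 and -0.11 for Sesn2. It was 0.22 for Nupr1, 0.18 for Ddit4 and 0.21 for Asns. Without the 2 farthest mice it was -0.41 for Trib3 and -0.15 for Chac1.

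**Figure D4:**
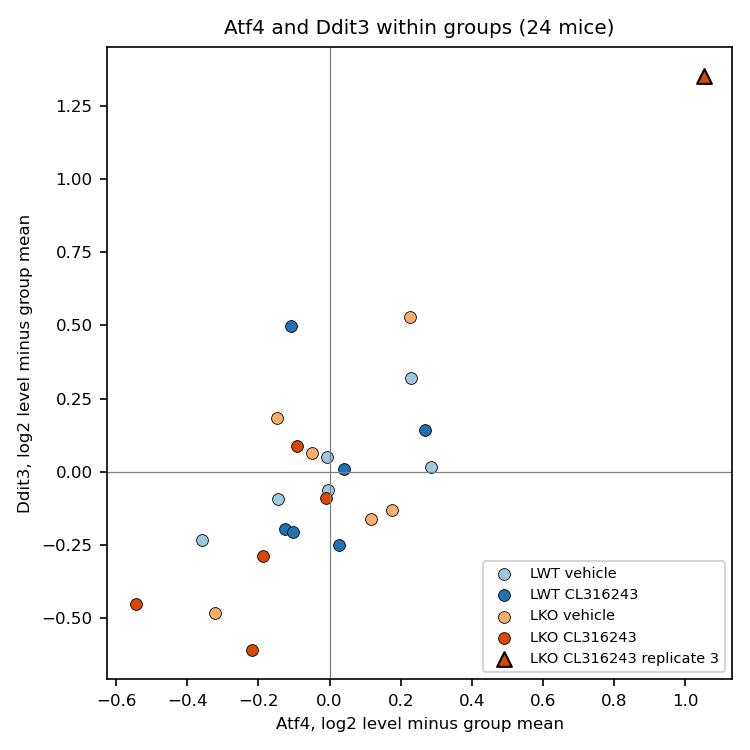
Ddit3 (vertical axis) against Atf4 (horizontal axis), each as the log2 level minus the mean of the mouse's group, for 24 mice coloured by group. The triangle at the upper right is LKO CL316243 replicate 3; r was 0.81 with it and 0.50 without it.

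As a description of likeness, the genes whose levels followed Atf4, Asns and Trib3 most closely within groups were taken from 12012 named genes well above background on all arrays. For Atf4 they were Eif4e, the cap-binding translation factor (r = 0.92, and 0.81 without LKO CL316243 replicate 3), Mybbp1a (0.91 and 0.75) and Mrpl3, a mitochondrial ribosomal protein (0.91 and 0.74). Zfp639 (0.90 and 0.84), Btbd10 (0.87 and 0.79) and Phf10 (0.85 and 0.74) were closest to Trib3. Asns had looser neighbours, Chn1, Usp42 and Sars, at 0.65 each (0.63, 0.62 and 0.63 without that mouse). Sars is a seryl-tRNA synthetase and belongs to a class of known ATF4 targets.

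The wider pathway was described by 88 further genes in 7 lists. With CL316243, 29 were called higher and 7 lower in LWT, and 42 higher and 11 lower in LKO. Of all genes, 38.3% in LWT and 40.3% in LKO were called. In LWT 18.9% and in LKO 20.9% were called higher, and 19.4% were called lower in each. The counts of the single lists below are to be read beside these same shares. The median change of the 88 was 0.18 in LWT and 0.26 in LKO. Without LKO CL316243 replicate 3, 39 were called in LWT and 50 in LKO, 36 and 49 of them also called with it. In that fit 41.7% and 36.7% of all genes were called. The direct test of the genotype difference called 3 higher and 4 lower of the 88, where 2.17% of all genes were called higher and 3.24% lower. Of these 7 genes, 4 were still called without LKO CL316243 replicate 3, where 7.2% of all genes were called.

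Of the 13 genes for eIF2α kinases, phosphatase regulators and eIF2B, 2 were called higher in LWT and 6 in LKO, with 2 lower in LKO. Eif2ak3, the gene of the endoplasmic reticulum kinase PERK, rose by 0.57 ± 0.18 in LWT (adjusted p = 0.0146) and by 1.45 ± 0.18 in LKO (adjusted p = 2.34e-06), and the difference of 0.88 was itself called (adjusted p = 0.0417; 0.0567 without LKO CL316243 replicate 3). Its level was 0.16 to 1.20 (median 0.38) in LKO vehicle and 1.73 to 2.36 (median 1.92) in treated LKO mice, which did not overlap. Eif2ak2, another kinase gene of this list, rose by 0.73 in LKO (adjusted p = 1.11e-05) and was not called in LWT (-0.04, adjusted p = 0.772). Its difference of 0.78 between genotypes was called too (adjusted p = 0.00182). Eif2ak1, the haem-sensing kinase, fell by 0.24 in LKO (adjusted p = 0.00938). Of 12 bZIP partners and relatives, 7 rose and 1 fell in LWT, and 8 rose and 1 fell in LKO. Atf3, an ATF4-induced repressor, rose by 1.73 ± 0.57 in LWT (adjusted p = 0.0204) and by 2.86 ± 0.57 in LKO (adjusted p = 0.000416), or by 2.22 in LKO without LKO CL316243 replicate 3 (adjusted p = 0.000212). Cebpa, a liver-enriched C/EBP factor, fell in both, by 0.79 (adjusted p = 0.00143) and by 0.57 (adjusted p = 0.015). Creb3l3, a liver factor of lipid metabolism, rose in LWT by 0.89 (adjusted p = 1.56e-05), was not called in LKO (0.17, adjusted p = 0.309), and differed between genotypes by -0.72 (adjusted p = 0.0239).

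Among 14 amino acid synthesis and one-carbon enzymes, 2 rose and 2 fell in LWT, and 6 rose and 3 fell in LKO. Pycr1, which makes proline, rose by 1.30 in LWT (adjusted p = 7.86e-05) and by 1.51 in LKO (adjusted p = 1.72e-05), from vehicle levels well above background on 3 of 6 and 1 of 6 arrays. Mthfd2, a mitochondrial folate enzyme, rose by 2.42 ± 0.45 in LKO (adjusted p = 0.00019), against 1.03 in LWT (adjusted p = 0.0724), with no called difference between these effects (1.38, adjusted p = 0.244). The serine hydroxymethyltransferases went the other way: Shmt1 fell by 0.76 in LWT (adjusted p = 4.65e-07) and by 0.52 in LKO (adjusted p = 5.87e-05), and Shmt2 by 0.22 (adjusted p = 0.0392) and 0.63 (adjusted p = 5.84e-06), with a called difference of -0.41 (adjusted p = 0.0446; 0.0566 without LKO CL316243 replicate 3). Members of this list therefore moved in both directions. Of 11 amino acid transporters tested, 3 rose and 2 fell in each genotype. Slc7a1, a cationic amino acid carrier, rose in LKO by 1.91 ± 0.37 (adjusted p = 0.000305); its LWT change of 0.66 was called only without LKO CL316243 replicate 3 (adjusted p = 0.166 with it, 0.00898 without). Slc43a1, a neutral amino acid carrier, fell by 0.99 in LWT (adjusted p = 0.0285) and by 1.19 in LKO (adjusted p = 0.00927). Slc6a9, a glycine carrier, rose in LWT by 1.41 (adjusted p = 2.37e-06) and had a change of 0.12 in LKO (adjusted p = 0.61), a called difference of -1.28 (adjusted p = 0.00283).

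Of 15 genes in the list of cytosolic aminoacyl-tRNA synthetases, which charge tRNAs with amino acids, 6 rose in LWT, and 9 rose and 1 fell in LKO. The list also holds Xpot, a tRNA export factor that is not a synthetase. Sars rose in LKO by 0.81 ± 0.10 (adjusted p = 1.9e-06), from 3.26 to 3.47 (median 3.31) under vehicle to 3.78 to 4.60 (median 4.12) treated. Its LWT change was 0.19 (adjusted p = 0.126), and the difference of 0.62 was called with all mice (adjusted p = 0.0088) and without LKO CL316243 replicate 3 (0.53, adjusted p = 0.00568). Lars rose in LWT by 0.70 (adjusted p = 2.84e-05), and its difference of -0.52 between genotypes was not called with all mice (adjusted p = 0.0506) and was called without that mouse (-0.64, adjusted p = 0.000981). Vars fell in LKO by 0.30 (adjusted p = 0.0156). Of 13 other ATF4 targets, 5 rose and 1 fell in LWT, and 8 rose and 1 fell in LKO. Fgf21, a hepatokine induced by both PPARα and ATF4, rose in LWT by 5.03 ± 0.57 (adjusted p = 5.04e-07). In LKO vehicle mice it was not well above background on any array, and its level with CL316243 was at least 29.6-fold higher (adjusted p = 3.11e-08; means of 0.03 treated and -6.65 vehicle as measured; for the bound each vehicle array was set to the lowest signal it could still measure, on average -4.85). Atg3, an autophagy enzyme, fell in both, by 0.19 (adjusted p = 0.00755) and by 0.34 (adjusted p = 4.97e-05). Of 10 genes of the mitochondrial unfolded protein response, which ATF5 regulates, 4 rose and 1 fell in LWT, and 2 rose and 1 fell in LKO. Clpx, a mitochondrial protease subunit, rose more in LWT (1.71, adjusted p = 1.61e-08) than in LKO (0.96, adjusted p = 3.78e-05), a called difference of -0.76 (adjusted p = 0.0398; 0.054 without LKO CL316243 replicate 3). Htra2 fell in both, by 0.42 (adjusted p = 0.00028) and by 0.32 (adjusted p = 0.00312).

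**Figure D5:**
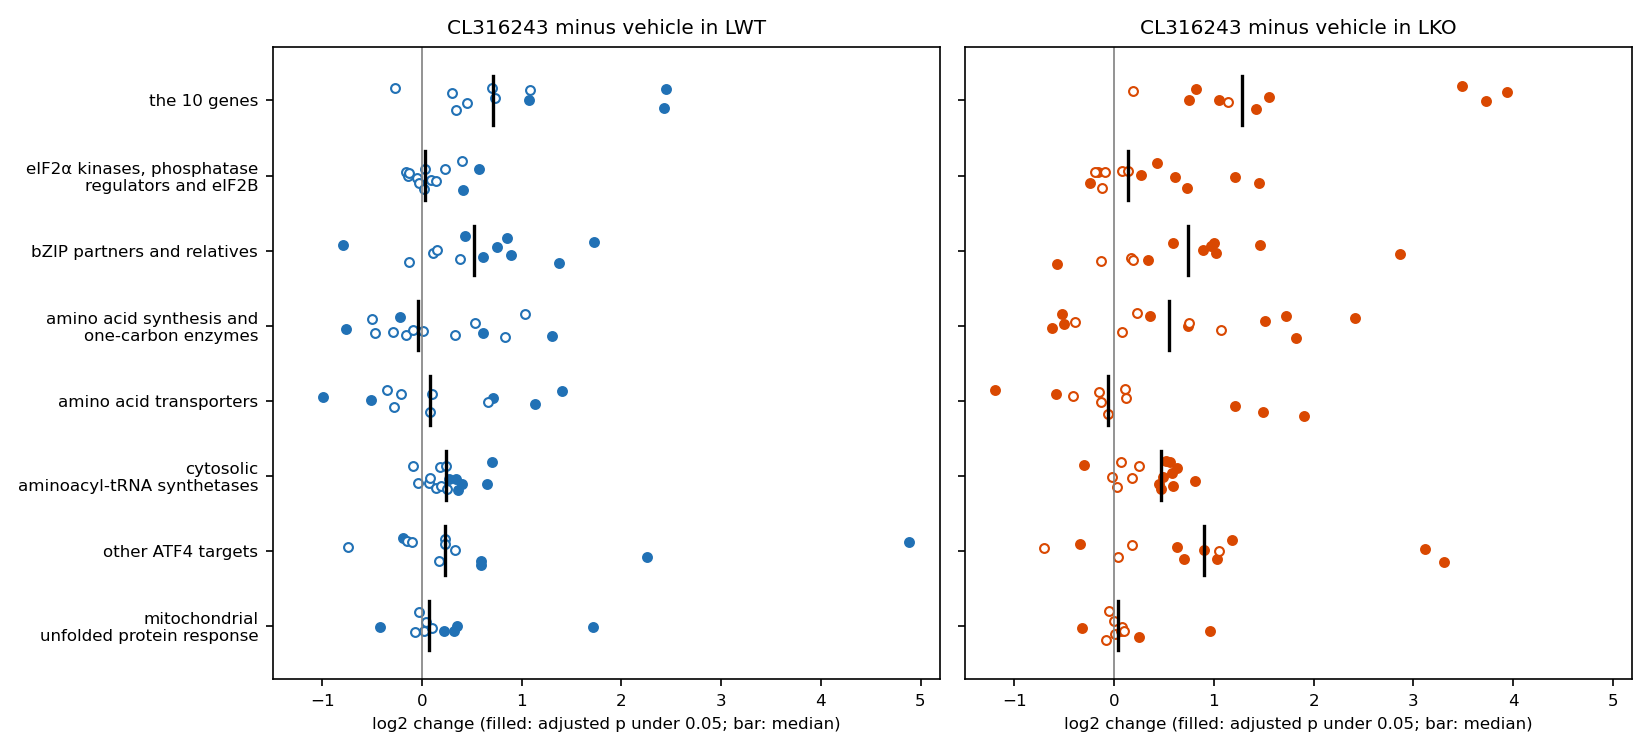
Log2 change with CL316243 (horizontal axis) in LWT (left) and LKO (right) for the 10 genes and for the genes of 7 pathway lists (1 point per gene, filled at an adjusted p under 0.05; vertical bar, the median). Fgf21, at background in LKO vehicle mice, is not drawn but counts in the medians; the 10 genes have medians of 0.72 and 1.28, and the amino acid enzymes and transporters hold filled points on both sides of 0.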

How the data were processed

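Each of 24 livers gave 1 Agilent single-colour array (200 ng RNA, Cy3). The authors' deposited files hold spot intensities from Feature Extraction (version 10.10.1.1); the submitters' processing notes name limma as well. The log2 values of the authors' deposited series table are quantile normalized: they lay within 0.01 of quantile-normalized log2 median signals for 99.26% of values, and they served as an alternative.

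Processed intensities were taken as log2 after removing outlier spots, minus each array's 75th percentile over 59305 non-control spots. A probe was kept if well above background on 4 of 6 arrays of any group with 3 values in every group (32037 of 56605). The brightest kept probe stood for its gene. All 24 arrays entered one limma 3.58.1 model (R 4.3.3) that estimates a mean for each group, with Benjamini-Hochberg adjustment within each of 5 comparisons, and genes were called at an adjusted p under 0.05. The fit was tested on simulated arrays. Marker lists were compared by two-sided exact permutation tests over 924 splits, and correlations within groups by 100000 permutations. Figures and tables used Python 3.11.15, pandas 2.3.3, numpy 2.4.6 and matplotlib 3.10.9. The number of arrays, 6 per group, limits the precision: log2 differences between groups had a standard error of 0.13 at the median, and 0.19 for the genotype by treatment difference. The mice are taken as separate animals from the labels.

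Samples were grouped by their genotype and treatment labels. The 10 genes and the lists were chosen with earlier results of these data known. Named are the 10 genes with every probe, Ppara, the called gene with the largest positive and negative change per list and comparison, and the 3 genes most correlated with Atf4, Asns and Trib3. Eif2ak2 is named as well because its genotype difference was called, and Xpot because it is not a synthetase. Coordinates of probes are mm9 as in the array's annotation, and promoter sequences are RefSeq's on GRCm38.p6. Exons and UTRs of the probes were not analysed here. The result of 1 marker list is not reported here. Alternatives tried were normexp, quantile normalization, another percentile, the series table, filters, probe summaries, slide, row and replicate terms, fits of 2 groups, a fold minimum and leaving out each mouse.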

Additional observations from a re-analysis of the deposited data

Results flagged for a closer look

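In 40 tests of the highest and lowest mouse in a group of 6 (10 genes in 4 groups), 4 values, from 2 mice, lay farther from the rest than Dixon's 95% criterion allows, where chance flags about 1 in 20 groups. The Atf4 level of LKO CL316243 replicate 3 was 7.93, against 6.87 for the next mouse, and its Ddit3 level was 1.98, against 0.72. Replicate 1 of LWT CL316243 was low for Psat1, at -1.48 against 0.45 for the next mouse, and for Trib3, at 0.16 against 1.01.

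Among the pathway genes, 7 had effects of CL316243 that differed between genotypes in limma's test of the difference (LKO effect minus LWT effect). Eif2ak3 (0.88), Eif2ak2 (0.78) and Sars (0.62) had the larger effect in LKO. The difference was -0.72 for Creb3l3, -0.41 for Shmt2, -1.28 for Slc6a9 and -0.76 for Clpx.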

How the results depend on the processing

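The 8 genes called in LKO and the 0 called between genotypes under vehicle were the counts in all 13 other settings and in all 24 fits without 1 mouse. In LWT the count of 3 (38.3% of all genes called) became 6 with only the LWT mice fitted (38.4%), and 3 to 8 without 1 mouse. The genotype by treatment count of 0 (5.41% of all genes called) became 1 with normexp (Nupr1, adjusted p = 0.0402). It became 1 with the percentile over probes above background on all arrays (Ddit3, 0.048) and 2 with the series table. Without 1 mouse it was 0 to 2. The 4 genes higher in LKO under CL316243 (15.9% of all genes called) became 2 without a filter on dim probes and 2 with slide and row terms. They became 2 with only those groups fitted (10.3% of all genes) and 2 at 1.5-fold or more (7.63%). Without 1 mouse they were 2 to 5. A slide block lost Atf4 (adjusted p = 0.0594) and the series table added Trib3 (0.0428, 5 genes). For the other settings named here the share of all genes called is not given, so these counts cannot be set against it. Sesn2 lost its call without any of 20 mice and Atf4 without any of 15. The causes of these shifts were not tested, except that fewer mice and groups enter some fits. Whether replicate numbers pair the mice was not settled, and the main fit does not use them. Deviations of same-numbered mice correlated at 0.06 on average, against -0.01 for mice of different numbers. The correlation was above 0.1 in 11 of 36 same-numbered pairs, and 10 of 24 mice correlated best with their own number. With a replicate block the genotype by treatment count was 1 (Nupr1, 2.40, adjusted p = 0.0131), Nupr1 was also called in LWT (0.0326), and under CL316243 the genotype difference of Ddit4 was called (0.0403) and that of Atf4 was not (0.064).

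Of 640 values of single genes in the other settings 619 kept direction and call, and 0 reversed. Without 1 mouse 1129 of 1200 did, and 21 reversed, none of them called: Atf5 in the genotype by treatment difference (-0.0905 to 0.0783), Psat1 between genotypes under CL316243 (-0.648 to 0.0741), Atf4 (-0.0474 to 0.0889), Sesn2 (-0.0078 to 0.11) and Nupr1 (-0.0066 to 0.37) between genotypes under vehicle, and Ddit4 in LKO (-0.0427 to 0.40) and LWT (-0.49 to 0.11). Part of this agreement was fixed in advance. In a comparison of 2 groups, leaving out a mouse of another group cannot alter the log2 change. Slide, row and replicate terms, fits of 2 groups and the fold minimum also left the change as it was, so only the call could differ. With the slide mean removed, r of Psat1 with Atf4 was -0.0332. Quantile normalization turned uncalled marker differences to -0.0725 (hepatocyte, LWT), -0.0831 (hepatocyte, LKO) and -0.027 (macrophage, LWT). Leaving out LKO CL316243 replicate 3 for the pathway lists was added after seeing the data. Probes near background, such as the second Psat1 and Nupr1 probes, limit what their values show.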
